A study of Homo sapiens with 6 samples.

Results

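The genes described here encode the aminoacyl-tRNA synthetases, the enzymes that join each amino acid to its transfer RNA. They were taken as a list of 36 symbols by the function of the encoded enzyme, from the 19864 protein-coding genes that GENCODE release 29 places on chromosomes 1 to 22 and X. Symbols are those of that release, and later releases add a digit to the names of the cytosolic enzymes (AARS is now AARS1). The list held 18 enzymes of the cytosol, 16 of the mitochondrion, and GARS and KARS, which serve both compartments from 1 gene each.

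The measurements came from K562, an established human leukaemia line of erythroid and megakaryocytic character for which the labels have the word lymphoblastoid; the cells received no treatment. Nascent RNA was sequenced by precision run-on (PRO-seq), in which permeabilized cells extend their unfinished transcripts with biotin-labelled nucleotides, and active starts were called as peaks with dREG, a classifier of run-on read patterns. There were 3 groups of 2 libraries: the published protocol on 1M cells per library (PRO-seq 1M, 11 PCR cycles), a quicker protocol on 1M cells (qPRO-seq 1M, 11 PCR cycles) and the quicker protocol on 250k cells (qPRO-seq 250k, 14 PCR cycles). The libraries of a group were grown at least 3 passages apart, and each group had 1 peak list, which stands for both of its libraries. These lists held 24707, 38177 and 15562 peaks on chromosomes 1 to 22 and X. Read depth is unknown and there was no spread between replicates, so no group was tested against another and values from the lists are given side by side. Where 3 values follow each other without a list's name, the first is for PRO-seq 1M, the second for qPRO-seq 1M and the last for qPRO-seq 250k. Positions refer to GRCh38.

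In most organisms each amino acid has its own synthetase, and human cells keep separate sets for the cytosol and the mitochondrion, all encoded in the nucleus. Several cytosolic enzymes assemble with scaffold proteins into the multisynthetase complex. When amino acids run short, uncharged transfer RNAs activate the kinase GCN2, the factor ATF4 accumulates, and ATF4 with C/EBP partners binds amino-acid response elements in the promoters of its targets, several cytosolic synthetase genes among them.

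Nearly all synthetase genes carried a peak at a transcript start. A start peak is a peak whose interval lies within 500 bp of any annotated start of the gene. It was present for 33 of 36 members in PRO-seq 1M (91.7%, Wilson 95% interval 78.2% to 97.1%), for 33 in qPRO-seq 1M and for 31 in qPRO-seq 250k (86.1%, 71.3% to 93.9%). Of all protein-coding genes, 52.9%, 54.5% and 44.0% had one in these lists. The same 31 members had a start peak in all 3 lists, against 43.1% of all protein-coding genes. The intervals cover counting error alone. CARS, VARS and VARS2 had no start peak in any list, and QARS and IARS2 lacked one in qPRO-seq 250k only.

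Start peaks of the synthetases also stood high within their lists. The dREG score has no unit and was used only as a percentile, the share of peaks in the same list that score no higher than the gene's top start peak. Percentiles from lists of different length are not measures of change. Among members with a start peak the median percentile was 83.4 in PRO-seq 1M, 88.5 in qPRO-seq 1M and 82.5 in qPRO-seq 250k, beside 76.4, 80.7 and 68.2 for all protein-coding genes with a start peak. Top peaks at or above percentile 90 belonged to 12 of 33, 16 of 33 and 9 of 31 members, while 23.1%, 28.4% and 17.3% of all such genes had one. Below percentile 50 there were 0, 1 and 8 members, against 18.8%, 15.7% and 29.9% of all such genes. GARS, IARS, KARS, LARS2, NARS2, TARS and YARS, 7 of the 36, reached percentile 90 in all 3 lists, as did 4.68% of all protein-coding genes.

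**Figure D1:**
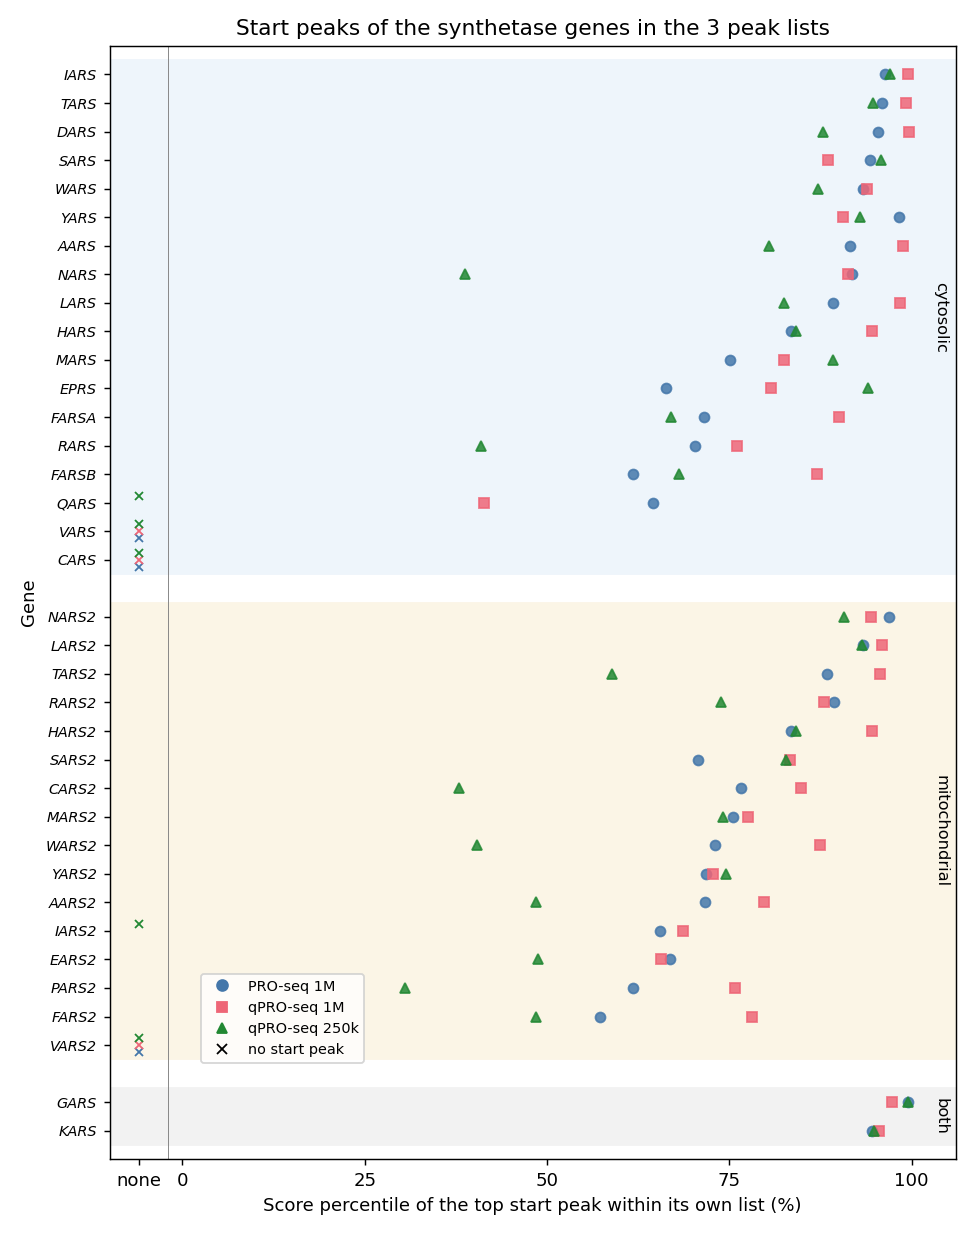
Score percentile of the top start peak (horizontal axis, percent of peaks in the same list with an equal or lower score) for each of the 36 genes, with 1 symbol per peak list and a cross where the gene had no start peak. The cytosolic genes IARS and TARS lie near the right edge in all 3 lists, while CARS, VARS and VARS2 have crosses only.

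The promoter sequences below are shown for motifs found more often in synthetase promoters than in others, and for GARS as the member with the highest median percentile. They are from RefSeq (GRCh38.p14), 5′ to 3′ along the strand of the gene, cut to the bases around the match. In the first 7 the capitals mark a match to the amino-acid response element, searched as TGATGNAA on both strands. In HARS2 they mark the pair of ETS-type matches (CCGGAAGT, both strands) that lie between the RefSeq starts of HARS2 and HARS. In KARS they mark a YY1-type match (AAGATGGCG, both strands). In GARS they mark a match to the TATA box letters (TATAAA, both strands), with its first base at -162 from the RefSeq start.
AARS, chr16:70289646-70289733, minus strand: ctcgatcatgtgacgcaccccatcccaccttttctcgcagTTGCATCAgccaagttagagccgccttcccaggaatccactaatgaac
CARS, chr11:3057378-3057465, minus strand: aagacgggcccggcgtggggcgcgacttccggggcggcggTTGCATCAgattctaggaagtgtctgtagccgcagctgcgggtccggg
IARS, chr9:92293663-92293750, minus strand: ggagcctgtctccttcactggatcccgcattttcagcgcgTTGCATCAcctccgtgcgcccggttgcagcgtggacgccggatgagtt
MARS, chr12:57488024-57488111, plus strand: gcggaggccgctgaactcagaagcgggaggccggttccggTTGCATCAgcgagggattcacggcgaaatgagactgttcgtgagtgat
NARS, chr18:57621787-57621862, minus strand: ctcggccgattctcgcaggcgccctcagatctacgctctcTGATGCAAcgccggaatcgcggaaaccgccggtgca
TARS, chr5:33440927-33441014, plus strand: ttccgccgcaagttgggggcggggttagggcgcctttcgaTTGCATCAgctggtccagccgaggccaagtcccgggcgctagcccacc
YARS2, chr12:32756047-32756134, minus strand: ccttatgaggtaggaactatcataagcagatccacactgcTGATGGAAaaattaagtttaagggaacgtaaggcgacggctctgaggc
HARS2, chr5:140691332-140691494, plus strand: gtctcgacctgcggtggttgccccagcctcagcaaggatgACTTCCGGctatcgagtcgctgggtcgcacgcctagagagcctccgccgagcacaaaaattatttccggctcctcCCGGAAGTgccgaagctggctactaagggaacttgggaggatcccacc
KARS, chr16:75647616-75647682, minus strand: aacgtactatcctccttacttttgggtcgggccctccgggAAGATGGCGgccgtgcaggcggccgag
GARS, chr7:30594533-30594618, plus strand: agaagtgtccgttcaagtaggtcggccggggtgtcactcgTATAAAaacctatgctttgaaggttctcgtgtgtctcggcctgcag

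The amino-acid response element was the motif whose share among synthetase promoters exceeded its share among all promoters most, in proportion. RefSeq promoters, 250 bases before to 50 after a start, were matched for 30 members (AARS2, DARS, LARS, VARS, VARS2 and YARS had no entry) and for 15380 protein-coding genes. The element was found in 7 of the 30, against 2.54% of all promoters and 1.57% of the promoters of genes with a start peak in all 3 lists. Of these 7, AARS, CARS, IARS, MARS, NARS and TARS are cytosolic enzymes (6 of 14 cytosolic promoters), and YARS2 is the only mitochondrial one (1 of 14). A stricter form, TGATGCAA, was added after the matches had been seen; all 6 cytosolic matches have it and that of YARS2 does not, and 0.683% of all promoters hold it.

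Counted with the RefSeq start as base 1 and no base 0, the first base of the match lay at -13 in IARS, -4 in MARS, -2 in CARS, 3 in TARS and 15 in NARS. These 5 matches were thus within 20 bp of the start, whereas those of AARS (-187) and YARS2 (-197) lay further upstream. For the 6 genes other than CARS the match fell inside a start peak in all 3 lists. In IARS, for example, it was 104 bp from the authors' peak centre in PRO-seq 1M, 144 bp in qPRO-seq 1M and 164 bp in qPRO-seq 250k. A match describes letters and does not show that a factor was bound.

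Members with the element and a start peak had median percentiles of 91.7, 95.0 and 84.8 (6 genes in each list), and members without it had 75.5, 87.5 and 74.1 (23, 23 and 21 genes). Over all promoters the order was the other way, 73.7, 78.6 and 67.5 with the element and 77.2, 81.6 and 68.9 without it. Only 36.8%, 39.9% and 28.4% of all 391 genes with the element had a start peak. Members and all promoters thus differed in which side had the higher median. NARS, which has the element, stood at percentile 38.8 in qPRO-seq 250k.

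Of the 11 motifs searched, ETS and YY1 letters were also more frequent in members than in other promoters. ETS factors and YY1 act at many promoters of housekeeping genes. The ETS letters were in 7 of 30 member promoters (CARS, EARS2, HARS, HARS2, NARS, PARS2 and WARS), against 6.33% of all promoters and 10.6% of those of genes with a start peak in all 3 lists. HARS and HARS2 hold the same matches, so their shared promoter region was counted for both genes. The YY1 letters were in 5 of 30 (FARSA, KARS, NARS, WARS2 and YARS2), against 2.80% and 4.88%. The CCAAT box, bound by NF-Y, was in 16 of 30, against 36.5% and 38.5%, and occurred in 7 of 14 cytosolic and 9 of 14 mitochondrial promoters.

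Other motifs were rare or near their general share. The GC box (GGGCGG), bound by SP1, was in 21 of 30 member promoters, close to the 72.2% among genes with a start peak in all 3 lists. The E-box (CACGTG), bound by MYC and related factors, was in 4 of 30 (CARS2, EARS2, IARS and MARS2), against 8.93% of all promoters. The CARS2 promoter searched is at its RefSeq start, away from its top start peak. Its E-box was 6725 bp, 6725 bp and 6715 bp from the centre of that peak, and in qPRO-seq 250k outside any start peak. The CCAAT matches of CARS2 were outside its start peaks in all 3 lists. NRF1 letters (CGCATGCGC) were in MARS2 only (2.80%), TATAAA in GARS only (9.53%) and the GATA letters AGATAA in FARSA only (7.44%). The cyclic AMP response element TGACGTCA (2.63%) and the ZNF143 letters ACTACAATT (0.468%) were in none of the 30. Median GC content was 62% for members and 63% for all promoters. The RefSeq start itself lay inside a peak for 29, 29 and 26 of the 30 genes.

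**Figure D2:**
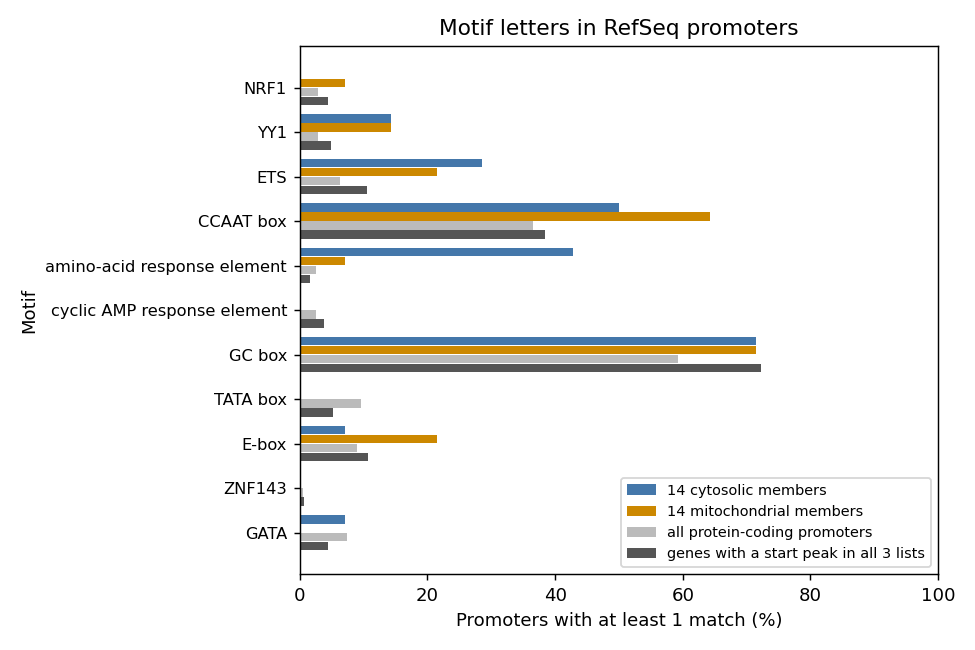
Percent of promoters with at least 1 match to each of 11 motifs (horizontal axis), for 14 cytosolic members, 14 mitochondrial members, all protein-coding promoters and the promoters of genes with a start peak in all 3 lists. The amino-acid response element is in 42.9% of the cytosolic members, 7.14% of the mitochondrial ones and 2.54% of all promoters.

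Among cytosolic enzymes, 16 of 18 had a start peak in PRO-seq 1M, 16 in qPRO-seq 1M and 15 in qPRO-seq 250k. The 3 with the highest median percentile were IARS (isoleucine), TARS (threonine) and DARS (aspartate). IARS stood at percentile 96.3 in PRO-seq 1M, 99.5 in qPRO-seq 1M and 97.0 in qPRO-seq 250k, with peaks at chr9:92293551-92294170, chr9:92293571-92294160 and chr9:92293541-92294060. TARS stood at 95.9, 99.2 and 94.7, and DARS at 95.4, 99.6 and 87.8. All values of these 3 genes except that of DARS in qPRO-seq 250k were above percentile 90.

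The lowest cytosolic enzymes with a start peak were QARS (glutamine), FARSB (beta subunit of the phenylalanine enzyme) and RARS (arginine). QARS stood at percentile 64.6 in PRO-seq 1M and 41.3 in qPRO-seq 1M, with the authors' centre at 49104870 on chromosome 3 in both, and in qPRO-seq 250k its nearest peak was 3537 bp away. FARSB stood at 61.7, 87.1 and 68.1, and RARS at 70.3, 76.1 and 40.9. The lists did not order the cytosolic genes alike. EPRS, which charges both glutamate and proline, had its highest percentile in qPRO-seq 250k (66.3, 80.7 and 94.0), whereas NARS (asparagine) had its lowest there (91.8, 91.2 and 38.8).

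Among mitochondrial enzymes, 15, 15 and 14 of 16 had a start peak. NARS2 (96.9, 94.3 and 90.8), LARS2 (93.3, 95.9 and 93.2) and TARS2 (88.4, 95.6 and 58.8) had the highest median percentiles. FARS2 (57.3, 78.1 and 48.5), PARS2 (61.8, 75.8 and 30.5) and EARS2 (66.9, 65.6 and 48.8) had the lowest. NARS2 and LARS2 thus lay in the range of the highest cytosolic enzymes, and the lowest mitochondrial ones were under percentile 50 in qPRO-seq 250k. IARS2 had percentiles of 65.5 and 68.7 in the lists from 1M cells, and in qPRO-seq 250k the peak nearest to its start was 4042 bp away. The dual enzymes were near the top in every list, GARS (glycine) at 99.5, 97.3 and 99.4 and KARS (lysine) at 94.6, 95.5 and 94.9.

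The cytosolic median percentile was above the mitochondrial one in each list, but the gap was not stable. It was 90.3 against 73.0 in PRO-seq 1M, 90.9 against 83.3 in qPRO-seq 1M and 87.2 against 66.3 in qPRO-seq 250k, differences of 17.3, 7.56 and 20.9 points. Percentile 90 was reached by 8 of 16, 10 of 16 and 5 of 15 cytosolic genes and by 2 of 15, 4 of 15 and 2 of 14 mitochondrial genes. The ranges overlapped widely in every list. Without members that share a head-to-head start with another gene, the difference was -2.19 points in PRO-seq 1M, 9.86 in qPRO-seq 1M and 1.20 in qPRO-seq 250k, so in PRO-seq 1M the order of the classes turned. Genes are not replicates of a class, and no test was made.

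**Figure D3:**
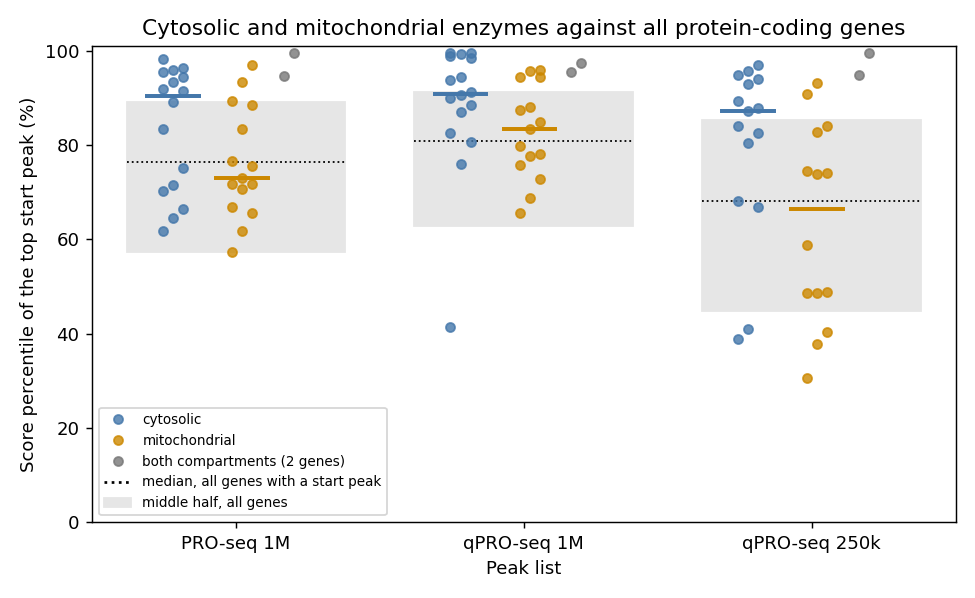
Score percentile of the top start peak (vertical axis, percent) by peak list for cytosolic, mitochondrial and dual-compartment enzymes, 1 point per gene with a start peak; coloured bars are class medians, the grey band spans the first to the third quartile of all protein-coding genes with a start peak, and the dotted line is their median. Cytosolic medians (90.3, 90.9 and 87.2) lie above mitochondrial ones (73.0, 83.3 and 66.3), and the points of both classes overlap.

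Enzymes for the same amino acid were also compared directly. In PRO-seq 1M, 13 cytosolic and mitochondrial pairs had a start peak on both sides (FARSA and FARSB were each paired with FARS2), and the cytosolic gene had the higher percentile in 8, the mitochondrial one in 4. In qPRO-seq 1M it was 10 against 2 of 13, and in qPRO-seq 250k 8 against 3 of 12. The remaining pair, HARS and HARS2, was equal because both share 1 peak. The tyrosine pair showed a gap in every list, with YARS at 98.2, 90.5 and 93.0 and YARS2 at 71.8, 72.8 and 74.5. The arginine pair ran the other way, with RARS2 at 89.4, 88.0 and 73.8 and RARS at 70.3, 76.1 and 40.9. NARS2 was likewise above NARS in all 3 lists.

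A further split of the cytosolic and dual enzymes was chosen after their values had been seen. The 8 enzymes of the multisynthetase complex (EPRS, IARS, LARS, MARS, QARS, RARS, KARS and DARS) had median percentiles of 82.2, 89.0 and 89.2 among those with a start peak (8, 8 and 7 genes). The 12 others had 92.6, 92.5 and 85.6 (10 genes in each list). The complex enzymes were lower in both lists from 1M cells and higher in qPRO-seq 250k, with overlapping ranges. QARS, the lowest complex enzyme in both lists from 1M cells (64.6 and 41.3), had no start peak in qPRO-seq 250k. The medians of the complex thus cover different genes, and the change of order was not tested on the same genes.

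VARS and VARS2, the cytosolic and mitochondrial valine enzymes, lie 0.888 Mb apart in the major histocompatibility complex on chromosome 6, and there the lists were nearly empty for all genes. PRO-seq 1M had no peak at all from 28616431 to 33570810, a stretch of 4.95 Mb with 178 protein-coding genes. The qPRO-seq 1M list had 6 peaks in it and start peaks for 3 genes, and qPRO-seq 250k had 0 peaks. Within 500 kb of VARS, 0, 2 and 0 of 71 other protein-coding genes had a start peak, and within 500 kb of VARS2 0, 1 and 0 of 31. The peak nearest to a VARS start was 1774858 bp away in PRO-seq 1M, 157442 bp in qPRO-seq 1M and 1775238 bp in qPRO-seq 250k.

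Among peak-free gaps over 1 Mb in PRO-seq 1M this one held the most protein-coding genes, and the next held 41. Peaks on alternate scaffolds of chromosome 6 numbered 25 in PRO-seq 1M, 66 in qPRO-seq 1M and 16 in qPRO-seq 250k. Some of these scaffolds hold other haplotypes of this region. The peaks were counted over all such scaffolds of the chromosome, not over this region alone, and were not assigned to genes. Whether reads from the valine enzyme genes went to those scaffolds was not tested. The absence of start peaks at VARS and VARS2 was shared with nearly all genes around them.

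**Figure D4:**
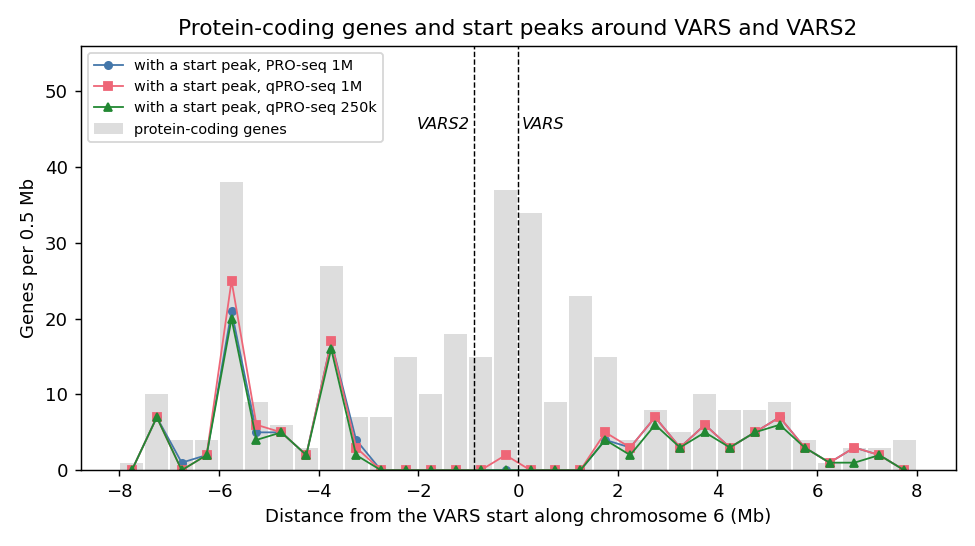
Number of protein-coding genes per 0.5 Mb (grey bars, vertical axis) and number of them with a start peak in each list (lines) against distance from the VARS start in Mb; dashed lines mark VARS and VARS2. The 178 genes of the stretch around both have start peaks for 0, 3 and 0 genes, whereas genes on either side have them.

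CARS, the cytosolic cysteine enzyme on chromosome 11, also lies in a stretch without PRO-seq 1M peaks, from 2929871 to 3165080, which holds only CARS and NAP1L4 as protein-coding genes. In qPRO-seq 1M this stretch had 2 peaks, neither within 500 bp of a CARS start, and the nearest was 11758 bp from one. In PRO-seq 1M the nearest peak was 77140 bp away and in qPRO-seq 250k 306650 bp. Of 10 other protein-coding genes within 500 kb, 5, 3 and 1 had a start peak. Alternate scaffolds of chromosome 11 held 0, 4 and 3 peaks, and whether reads of CARS went there was not tested. By contrast, QARS and IARS2 lie among genes with start peaks also in qPRO-seq 250k, at 19 of 31 and 3 of 5 neighbours within 500 kb.

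Many synthetases share a promoter region with a gene on the other strand. A head-to-head start was counted where another gene's start on the opposite strand lay within 1000 bp, pointing away, with an overlap of at most 200 bp. This held for 17 of 36 members (8 cytosolic, 7 mitochondrial and both dual enzymes), against 29.2% of all protein-coding genes and 44.7% of the 8566 genes with a start peak in all 3 lists. The partner was protein-coding for 12 members, against 16% and 27.7%. The share among members was thus close to that of other genes with start peaks in all lists. dREG peaks carry no strand, so a shared peak cannot be assigned to either gene.

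The partners of the cytosolic and dual enzymes were as follows, with the distance from the minus-strand to the plus-strand start, negative where the starts overlap. Each distance is for the closest pair of annotated starts, which need not be the RefSeq starts. AARS faced the RNA helicase gene DDX19B at 120 bp, YARS faced S100PBP at 125 bp and WARS faced WDR25 at 75 bp. KARS faced TERF2IP, which encodes a telomere-binding protein, at 107 bp. Partners that do not code for protein were DARS-AS1 at -89 bp, GARS-DT at 29 bp, AC034231.1 at TARS (77 bp), and CARS-AS1 and AC108448.3 at CARS.

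Among the mitochondrial enzymes, HARS2 faced HARS, and the others had partners of varied function. SARS2 faced MRPS12, a protein of the mitochondrial ribosome, at 48 bp, and FARS2 faced LYRM4, a factor of mitochondrial iron-sulfur cluster assembly, at 105 bp. RARS2 faced ORC3, a subunit of the origin recognition complex, at 64 bp. EARS2 faced UBFD1 at -2 bp, CARS2 faced ING1 at -62 bp and WARS2 faced the antisense gene AL359915.2 at 37 bp.

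In 15 of these 17 members the top start peak lay within 500 bp of both facing starts in all 3 lists. The exceptions were CARS, without a peak, and MARS. In WARS the top start peak was nearest to other annotated starts, 100375644 in both lists from 1M cells and 100375744 in qPRO-seq 250k. A lower-scored WARS peak covered the facing starts, at percentiles 88.9, 84.8 and 72.3. The MARS start that faces ARHGAP9 is 12.6 kb upstream of the RefSeq start, and the peak nearest to it was 12.3 kb, 12.2 kb and 12.2 kb away. The MARS peaks lay at the downstream start, at chr12:57487701-57488210 in PRO-seq 1M, chr12:57487651-57488300 in qPRO-seq 1M and chr12:57487611-57488150 in qPRO-seq 250k. All 12 members with a protein-coding partner had a start peak in every list, whereas 82.7%, 83.9% and 75.7% of all genes with such a partner had one. Members without such a partner had one in 21, 21 and 19 of 24 cases, against 47.2%, 48.9% and 37.9% of all genes without one.

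HARS and HARS2, the cytosolic and mitochondrial histidine enzymes, face each other on chromosome 5. Their closest pair of annotated starts lies at -23 bp. Their RefSeq starts, 140691370 for HARS and 140691455 for HARS2, do not overlap. Both genes shared 1 peak in each list. It spanned chr5:140691231-140691620 in PRO-seq 1M, chr5:140691061-140691860 in qPRO-seq 1M and chr5:140691221-140691590 in qPRO-seq 250k, with the authors' centre at 140691380 in all 3. Its percentiles were 83.4, 94.5 and 84.1. Both ETS-type matches shown in capitals for HARS2 lay inside this peak in every list, 5 bp and 70 bp from the centre, and they are also the matches in the HARS promoter, read from the other strand.

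Top start peaks of the synthetases lay at nearly the same position in the 3 lists. The median distance between the centres of a member's top peaks was 20 bp between PRO-seq 1M and qPRO-seq 1M (33 genes), 20 bp between qPRO-seq 1M and qPRO-seq 250k and 30 bp between PRO-seq 1M and qPRO-seq 250k (31 genes each). It was 40 bp for all protein-coding genes in each of the 3 pairs of lists. Top peaks overlapped in 32 of 33, 30 of 31 and 31 of 31 members, and in 90.3%, 90.7% and 91.4% of all protein-coding genes with a start peak in both lists. PARS2 was the exception in both comparisons with qPRO-seq 1M, with centres 240 bp and 220 bp apart. In qPRO-seq 1M a lower-scored PARS2 peak, at percentile 70.4, had its centre at 54764580, as did the top peak in qPRO-seq 250k. The 2 qPRO-seq 1M peaks thus differed in rank, and a peak at the position of the other lists was present. Centres lay upstream of the nearest annotated start in 25 of 33, 26 of 33 and 22 of 31 members, near the 72.9%, 73.3% and 75.2% of all genes with a start peak. Median distances from that start were 41 bp, 48 bp and 34 bp, against 52 bp, 59 bp and 50 bp for all genes with a start peak.

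**Figure D5:**
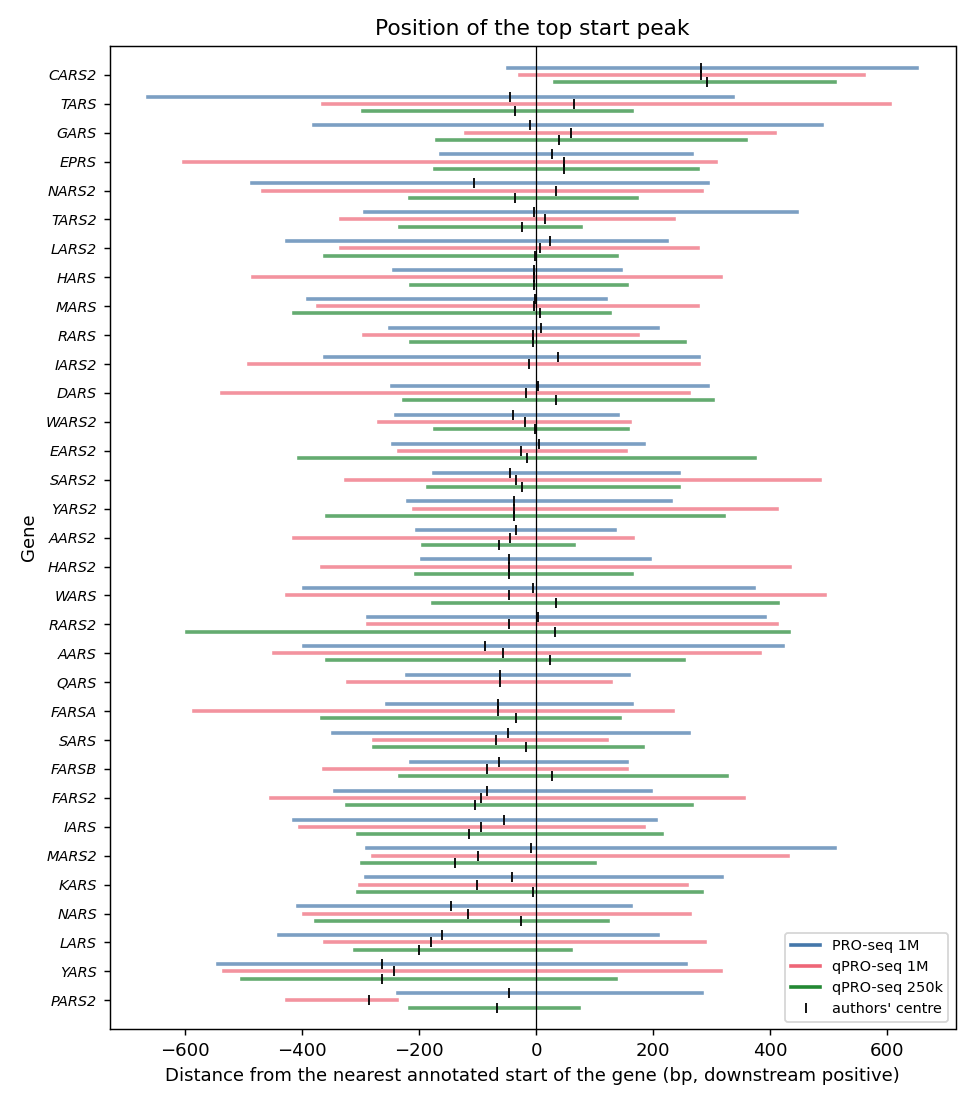
Extent of the top start peak (coloured bars, 1 per peak list) and its centre as the authors gave it (black ticks) against distance from the nearest annotated start of the gene in bp, positive downstream, for the 33 members with a start peak in at least 1 list. Most centres lie within 100 bp of the start, and the bars of PARS2 in qPRO-seq 1M and in the other lists do not overlap.

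Top start peaks had median widths of 570 bp, 650 bp and 500 bp in members and 550 bp, 540 bp and 470 bp in all genes. More than 1 start peak was present for 16 of 33, 20 of 33 and 11 of 31 members, near the 49.6%, 61.6% and 32.7% of all genes with a start peak. Once peaks within 500 bp were merged, only 1 member had several in each list. CARS2 was the sole member with start peaks at places over 1000 bp apart, a property of 7.22%, 8.64% and 5.52% of all genes with a start peak. One place faces ING1, with percentiles of 76.6, 84.8 and 37.9. The other lay 6.99 kb, 6.85 kb and 6.96 kb away, near the RefSeq start, with percentiles of 72.0, 67.5 and 26.6.

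Peaks inside the genes and over 500 bp from any start were found in 4, 8 and 2 members, against 12.2%, 23.4% and 7.19% of all protein-coding genes. SARS, the serine enzyme, had the strongest, over an exon and 719 bp from the nearest start in qPRO-seq 1M. In every list it closely followed a run of adjoining peaks that included the top start peak of SARS. With a limit of 1000 bp from any start it was not counted in any list. This peak spanned chr1:109214711-109215200 in PRO-seq 1M, chr1:109214701-109215840 in qPRO-seq 1M and chr1:109214651-109215220 in qPRO-seq 250k, at percentiles 81.3, 98.5 and 86.0. In qPRO-seq 1M it exceeded the top start peak of SARS (88.5), and in the other lists it did not (94.3 and 95.7). FARS2 had an intronic peak in all 3 lists, at chr6:5302281-5302510 in PRO-seq 1M, 10893 bp from the nearest start of any gene, with percentiles of 38.7, 52.7 and 7.14.

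Most companion genes of the pathway also had start peaks. From a list of 22 genes, 21, 21 and 18 had one (52.9%, 54.5% and 44.0% of all protein-coding genes). Their median percentiles were 78.9, 87.9 and 74.0, beside 76.4, 80.7 and 68.2 for all genes with a start peak. All 3 scaffold genes of the multisynthetase complex, AIMP1, AIMP2 and EEF1E1, had one in each list, with EEF1E1 the highest in qPRO-seq 250k (96.4) and AIMP1 the lowest in every list (55.8, 74.1 and 46.2). GATC, a subunit of the mitochondrial amidotransferase that completes glutaminyl-tRNA, had none in any list. GATB, another subunit, MTFMT, which formylates the mitochondrial initiator methionyl-tRNA, and TUFM, the mitochondrial elongation factor, had none in qPRO-seq 250k. QRSL1, the catalytic subunit, stood at 79.2, 70.7 and 93.4. The elongation factor gene EEF1A1 stood at 93.8, 87.9 and 83.5, and TARSL2, a threonyl enzyme-like gene, at 64.0, 34.5 and 24.2.

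Genes of the amino-acid response had start peaks in these untreated cells. All 4 kinases that phosphorylate eIF2alpha had start peaks in every list, EIF2AK1 with the highest percentiles in PRO-seq 1M (90.5) and the lowest value being that of EIF2AK2 in qPRO-seq 250k (31.2). EIF2AK4, which encodes GCN2, stood at 78.8, 86.4 and 58.4. ATF4 had a start peak of low rank (41.8, 33.9 and 3.80), and DDIT3, which encodes CHOP, one of high rank (96.9, 92.7 and 82.6). The 6 targets (ASNS, TRIB3, CHAC1, SESN2, PSAT1 and PHGDH) had start peaks in all 3 lists, PHGDH being highest in PRO-seq 1M (94.9) and TRIB3 lowest in qPRO-seq 250k (41.2).

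As a check of the cell line, the erythroid and megakaryocytic marker genes GATA1, TAL1, KLF1, EPOR, HBG1 and HBG2 had a start peak in all 3 lists. Of the B-lymphoid markers, MS4A1, CD79A, CD79B and PAX5 had none in any list, and EBF1 had one in both lists from 1M cells. Of 4 T-lymphoid markers only CD4 had one, in qPRO-seq 1M, at percentile 0.424.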

How the data were processed

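Run-on libraries of K562 cells were analysed as 3 peak lists, each named in the labels for both libraries of its group. Per the labels, these are dREG peaks; the submitters' processing notes name hg38, fastp 0.20.0, Bowtie2 2.3.5.1, deepTools 3.1.3 and UMI-tools, without roles. The pooling of libraries and the dREG version and thresholds are not given in the sources used here. The score and the p-value of each peak are as the authors deposited them; scores were ranked only within a list, and p-values, all under 0.05, served only as a filter alternative. Starts were converted from 0-based to 1-based positions.

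Peaks were joined to GENCODE release 29 starts with Python 3.11.15 and pandas 2.3.3, and the joining was tested on simulated peaks. Promoters came from RefSeq. Named genes were all members lacking a start peak in some list, the 3 highest and 3 lowest per class, those with head-to-head starts or several places, and companions by range. The members and lists were chosen with earlier results of these data known. Some marker genes are not reported here. The alternatives tried were other windows, a p limit of 0.01, equal list sizes, coding transcripts, peak centres, other percentiles, merged peaks and left-out members. Depth per library is unknown, which limits every absent peak; no test between groups was possible.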

Additional observations from a re-analysis of the deposited data

Results flagged for a closer look

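Peaks on alternate scaffolds entered no comparison above. On those of chromosome 6 there were 25 in PRO-seq 1M, 66 in qPRO-seq 1M and 16 in qPRO-seq 250k. On those of chromosome 11 there were 0, 4 and 3. Counts above 3, a fixed limit, were flagged, which leaves out the 0 and the 3 of chromosome 11. No expected number of such peaks was available, so passing the limit shows only that such peaks exist. VARS, VARS2 and CARS, the members without a start peak in any list, lie on these chromosomes; the part of the scaffolds in that was not tested.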

How the results depend on the processing

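Of 102 values recomputed under alternatives, 89 kept their direction and stayed within the limits set for a moved value, 12 moved and 1 reversed. The difference of class medians reversed in PRO-seq 1M, to -2.19 points, when members with a head-to-head start were left out, and shrank to 1.20 points in qPRO-seq 250k; the cause was not tested. The counts of cytosolic and mitochondrial members with a start peak were then 9 and 8 in PRO-seq 1M, 9 and 8 in qPRO-seq 1M and 8 and 7 in qPRO-seq 250k, since fewer genes entered. Merging peaks within 500 bp left 1 member with several start peaks in PRO-seq 1M, 1 in qPRO-seq 1M and 1 in qPRO-seq 250k, by construction. A limit of 1000 bp from any start left 5 members with a gene-body peak in qPRO-seq 1M and 1 in qPRO-seq 250k, and dropped the SARS peak from every list. Cutting each list to 15562 peaks removed only QARS, from qPRO-seq 1M (32 members). Leaving out CARS, VARS and VARS2 was added after seeing the data. So were the split of the response element by its stricter form and the comparison with promoters of active genes. CARS, VARS and VARS2 have no start peak, so leaving them out can change no count or median. Its 16 values among the 89 are fixed by construction. Other values among the 89 are fixed as well. These are the class counts under other choices of percentile or of peak per gene. The mitochondrial counts with dual enzymes counted as cytosolic are fixed too, as is the qPRO-seq 250k count at equal list size. Centring the motif search on peak centres was not run, because no genome sequence was used here. No paired analysis was possible because each group had 1 list for both of its libraries. Unknown depth limits every statement on an absent peak.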
